A study of Homo sapiens with 17 samples.

Results

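The cytosolic ribosomal protein genes are described here as 82 genes out of the 58870 gene rows of the deposited table. They were chosen by symbol (RPL or RPS with a number, RPSA, RPLP0, RPLP1 and RPLP2, without the Y-linked copies) and by a mean count of at least 20 over 17 libraries. The symbol matched 84 rows, and 2 of them fell below the minimum: RPL3L, a muscle-enriched copy of RPL3, had a mean count of 1.29 and RPL10L, a testis-enriched copy of RPL10, had 0.0. The members closest above the minimum were RPL39L with a mean count of 398 and RPL22L1 with 812. At the other end RPS18 had a mean count of 46611 and RPLP0 of 39410, without regard to gene length. The 82 members comprise 31 proteins of the small subunit, 43 of the large subunit, the 3 stalk proteins RPLP0, RPLP1 and RPLP2, and 5 paralogs (RPL22L1, RPL26L1, RPL39L, RPL7L1 and RPS27L). They lie on 21 chromosomes, and all 82 passed the filter on low counts.

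The small subunit of the ribosome reads the mRNA and the large subunit joins the amino acids, and a proliferating cell makes their proteins in nearly equal numbers from many separate genes. The mRNAs of these genes typically begin with a C followed by an unbroken run of pyrimidines, the terminal oligopyrimidine (TOP) tract. Through this tract the kinase mTOR and the RNA-binding protein LARP1 set how strongly the mRNAs are translated and how stable they are.

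The cells were MDA-MB-231, an established human line from a triple-negative breast cancer that the labels class as mesenchymal basal B, grown with serum. TRAIL, a death receptor ligand related to TNF, was added at 45 nM, a dose the labels call suboptimal, and RNA was collected at 0, 1, 3, 6, 12 and 24 h. There were 3 libraries at each time apart from 1 h, which had 2. The TRAIL treatment label is on all 17 libraries, the 0 h ones too, and none of them is labelled untreated. Time with TRAIL and time in culture cannot be told apart. The labels do not say whether the libraries of a time came from separate cultures, so the p-values measure the spread between these libraries, which may be technical. Mesenchymal markers were expressed, with a median over the libraries of 3347 CPM (counts relative to the scaled library total) for VIM, 758 for AXL and 47.5 for ZEB1. Of 9 luminal or receptor genes, ESR1 (0.050 CPM), PGR (0), FOXA1 (0) and CDH1 (0.435) were near 0. The others were detected, with medians of 10.7 CPM for GATA3, 16.5 for EPCAM, 62.7 for ERBB2, 662 for KRT18 and 966 for KRT8. The blood marker PTPRC had 0.0685 CPM and the endothelial marker PECAM1 1.26. All libraries came from the whole culture, in which fewer copies per cell and fewer cells of a kind cannot be told apart.

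The start regions of 14 members are printed first because the TOP tract is the feature that the family shares and that the choice of members did not use. Each run is 40 bases of the RefSeq promoter table (GRCh38.p14), from 25 bases before the annotated transcript start to 15 bases from it onward, on the strand of the gene. Capitals mark a C at the first transcribed base together with the pyrimidines that follow it without a break, where that run was at least 5 bases long. The first 6 members are among those with the lowest values at 24 h or with the widest distance between 3 h and later times. The next 4 moved less, though RPLP0 among them was called lower after 24 h, and the last 4 are paralogs.
RPS18, chr6:33272050-33272089, plus strand: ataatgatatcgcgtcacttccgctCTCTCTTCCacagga
RPL36A, chrX:101390986-101391025, plus strand: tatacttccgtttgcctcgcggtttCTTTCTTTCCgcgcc
RPL34, chr4:108620551-108620590, plus strand: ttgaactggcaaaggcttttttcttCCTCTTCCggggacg
RPL24, chr3:101686704-101686743, minus strand: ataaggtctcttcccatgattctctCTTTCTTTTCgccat
RPLP2, chr11:809942-809981, plus strand: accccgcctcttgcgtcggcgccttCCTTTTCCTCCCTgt
RPL13, chr16:89560657-89560696, plus strand: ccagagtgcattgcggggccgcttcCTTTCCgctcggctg
RPLP0, chr12:120201097-120201136, minus strand: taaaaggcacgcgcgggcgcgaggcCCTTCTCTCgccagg
RPL3, chr22:39319609-39319648, minus strand: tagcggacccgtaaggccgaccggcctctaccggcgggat
RPS3A, chr4:151099603-151099642, plus strand: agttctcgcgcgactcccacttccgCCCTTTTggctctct
RPL41, chr12:56116608-56116647, plus strand: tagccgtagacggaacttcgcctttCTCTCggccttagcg
RPL22L1, chr3:170870181-170870220, minus strand: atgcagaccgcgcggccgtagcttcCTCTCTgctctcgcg
RPL26L1, chr5:172958704-172958743, plus strand: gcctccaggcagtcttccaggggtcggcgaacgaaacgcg
RPS27L, chr15:63157463-63157502, minus strand: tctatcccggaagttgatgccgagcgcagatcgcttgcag
RPL7L1, chr6:42879591-42879630, plus strand: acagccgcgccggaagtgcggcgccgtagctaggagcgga

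The run of pyrimidines was 13 bases long in RPLP2, 10 in RPL36A and RPL24, 9 in RPS18 and RPLP0, and 5 in RPL41. In RPL3 it was 4 bases long and thus below the minimum, so no base is in capitals. Of the 66 members with an entry in the promoter table, 47 (71.2%) had a tract of at least 5 bases that began with C at the annotated start, against 1404 of 27305 genes in the table (5.14%). When the start was allowed to lie up to 5 bases to either side, the tract was found in 54 members (81.8%) and in 25.2% of all genes. Among the paralogs, RPL22L1 had the tract, while RPL26L1, RPS27L and RPL7L1 showed none at their annotated starts. A tract found in this way is a match of letters in the transcribed strand and was not measured as a site.

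The ribosomal protein genes took the largest share of all gene counts after 3 h and the smallest after 24 h. At 0 h their share was 8.22, 8.0 and 7.75% in the 3 libraries, and at 1 h it was 8.0 and 8.84%. The 3 h libraries had 8.79, 9.44 and 8.54%, so that the lowest of them lay above the highest at 0 h. The 6 h libraries had 7.38, 6.60 and 6.59%, all below 0 h. At 12 h the shares were 7.84, 6.92 and 7.49%, which overlapped with 0 h, and after 24 h they were 7.35, 6.25 and 6.31%. The means were 7.99 ± 0.232% at 0 h, 8.92 ± 0.462% after 3 h, 6.85 ± 0.453% at 6 h, 7.42 ± 0.463% at 12 h and 6.63 ± 0.617% after 24 h (SD, n = 3 each), and 8.42 ± 0.589% at 1 h (n = 2). No p-value is given for this share, since the members were chosen with earlier results known.

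**Figure D1:**
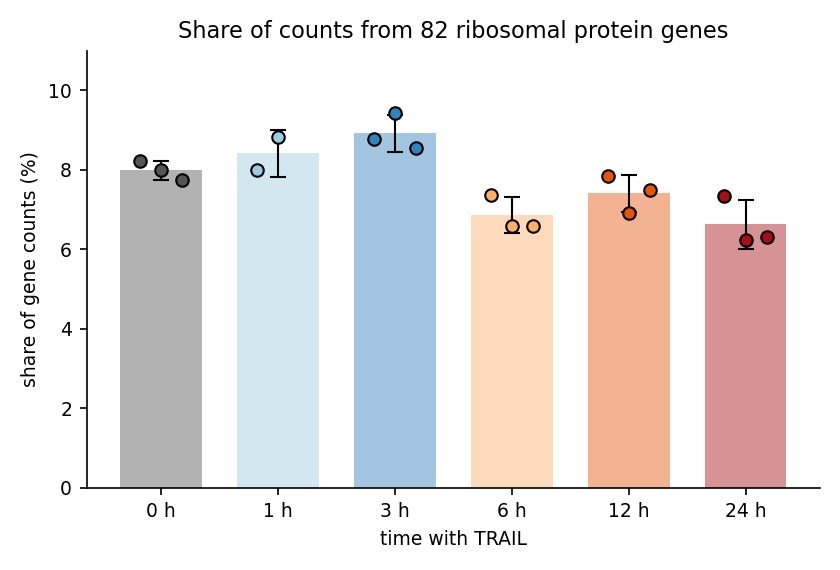
Share of all gene counts (%, vertical axis) that came from the 82 ribosomal protein genes, by time with TRAIL. Points are libraries, bars are means and error bars are SD. The 3 h libraries reach from 8.54 to 9.44% and all lie above 0 h, while the 24 h libraries reach from 6.25 to 7.35% and all lie below it.

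Library totals ranged from 13731497 to 19234939 counts. Replicates 2 and 3 at 6 h, and likewise replicates 2 and 3 after 24 h, had nearly equal values and stood apart from replicate 1 of their time. Across all tested genes the libraries also differed in how log2 CPM depended on transcript length, by a slope per doubling that was -0.14 in replicate 2 of 3 h and 0.14 in replicate 2 of 24 h, relative to the mean library. The members are short, with a median transcript of 786 bases against 2620 bases for the tested genes, and 73 of the 82 were shorter than that. The median member, relative to the mean at 0 h, stood at 0.23, 0.36 and 0.17 (log2) in the 3 h libraries, whose length trends were -0.09, -0.14 and -0.07. In the 24 h libraries it stood at -0.18, -0.46 and -0.43, with length trends of 0.03, 0.14 and 0.13. In the 6 h libraries it stood at -0.10, -0.30 and -0.32, with trends of 0.02, 0.10 and 0.10. Low ribosomal protein levels thus lay in the libraries in which short transcripts in general were low. The share of counts from mitochondrial genes had the same order as that of the members at all times but 1 h, with 8.59 ± 0.521% after 3 h, 6.75 ± 1.46% at 0 h, 5.72 ± 0.953% after 12 h, 4.49 ± 0.830% after 6 h and 3.90 ± 0.240% after 24 h (SD, n = 3). The part of the length trend and of the mitochondrial share in the ribosomal protein level was not tested. Each comparison is also given with a smooth trend on length and GC content removed from every library. This was done once with the coding length and once with the full transcript length of the reference transcript. Where the members share a real change with other short mRNAs, this step removes that change as well, and the 2 cannot be told apart.

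**Figure D2:**
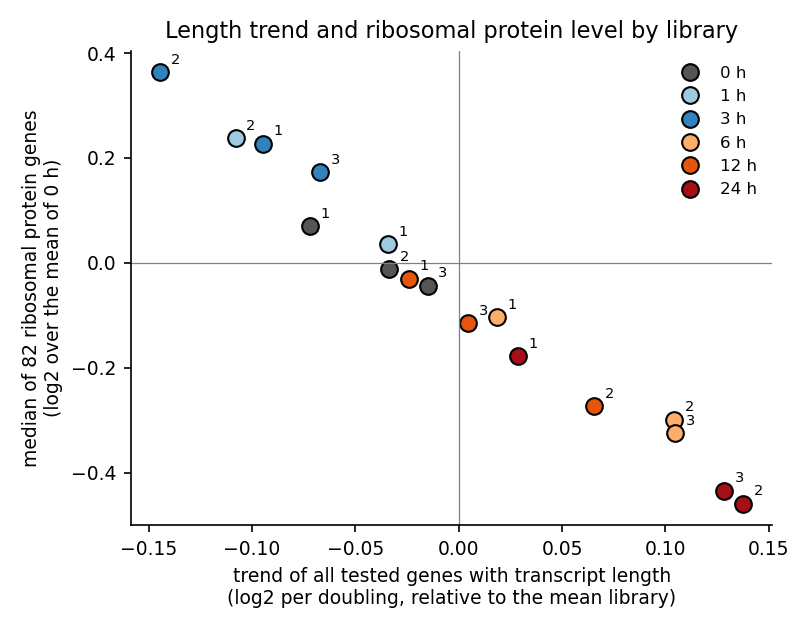
Each point is a library, numbered by replicate and coloured by time. The horizontal axis gives how log2 CPM depends on transcript length over all tested genes, as a slope (log2 per doubling, relative to the mean library) and the vertical axis is the median log2 level of the 82 members over the mean at 0 h. Libraries with a slope of -0.14 (3 h, replicate 2) and 0.14 (24 h, replicate 2) hold the highest and the lowest member level, 0.36 and -0.46.

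After 1 h 0 members were called in either direction, and 2 were higher at an unadjusted p below 0.05. This was edgeR's quasi-likelihood test, in which a gene is called when its Benjamini-Hochberg adjusted p over 15365 tested genes is below 0.05, and among all genes 0.26% were called higher and 0.0521% lower. With the transcript-length and the coding-length correction described above 0 members were called as well (0.377% and 0.384% of genes higher, 0.0911% and 0.0846% lower), and DESeq2 and limma-voom called 0. All 1 h libraries lay above all 0 h libraries in 11 members (13.4%) and below in 1 (1.22%), against 10.1% and 8.96% of tested genes. The median member stood at a log2 fold change of 0.13, and the range was -0.15 (RPL39L) to 0.31 (RPL22L1). The 2 libraries differed, with a median member level of 0.04 in replicate 1 and 0.24 in replicate 2 relative to 0 h.

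At 3 h, 35 members rose against 0 h and 0 fell, while 9.04% of all tested genes rose and 8.71% fell. The median over the 82 members was 0.25 on the log2 scale, against 0.00 over all tested genes. In 62 members all 3 h libraries lay above all 0 h libraries, which was the case for 17.2% of tested genes. The highest members were RPL22L1 (0.55), RPS26 (0.44), which lies at the mRNA exit channel of the small subunit, RPL36A (0.42), RPS25 (0.41) and RPL24 (0.40), a protein of a bridge between the subunits. All 5 were called, with adjusted p between 0.00218 and 0.0288 in the edgeR test. Among the lowest were RPL39L (-0.08), RPL7 (0.00), RPL7L1 (0.00) and RPL41 (0.01), of which none was called. With the coding-length correction the median was 0.18 and 51 members were higher, and with the transcript-length correction it was 0.14 and 36 were higher (14.3% and 13.2% of all genes). RPL39L and RPL41 were among the 3 members called lower under both corrections, by which 11.3% (coding) and 12.3% (transcript) of all genes were lower. The count depended on single libraries: 2 members were called without replicate 2 of 3 h, 16 without replicate 1 of 3 h, 3 without replicate 2 of 0 h and 5 without replicate 3 of 0 h. Calls over all tested genes fell too, from 1389 higher with all libraries to 827, 868, 789 and 745 in that order.

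At 6 h the direction was the opposite, with 35 members lower than at 0 h and 1 higher, against 13.2% and 16.9% of all tested genes, or 30.1% in either direction. The median was -0.23, and 53 members had all 6 h libraries below all 0 h libraries, against 21.4% of tested genes. The lowest members were RPL37 (-0.37), RPL38 (-0.34), RPL34 (-0.34), RPS21 (-0.34) and RPS15 (-0.34), with edgeR adjusted p from 0.00957 to 0.0487. The highest were RPL7L1 (0.29), the member called higher, and, uncalled, RPL7 (-0.06), RPL22L1 (-0.07) and RPL39L (-0.07). After the coding-length correction 13 members were lower at a median of -0.12, and after the transcript-length correction 5 were lower at -0.05 (13.7% and 11.4% of all genes). RPL34, RPL37, RPL38 and RPS18 were called lower under both. The reference transcript of RPL37 has 7686 bases, of which 291 are coding, so the transcript-length correction treats it as a long gene. With replicates 2 and 3 of 6 h averaged as 1 library, and likewise those of 24 h, 0 members were called lower by edgeR, and the median was -0.19. Over all tested genes 1002 were lower under this setting, against 2025 with all libraries. With all libraries DESeq2 called 47 lower and limma-voom 39 (1787 and 2009 of all genes). Without replicate 3 of 6 h the edgeR count was 0, without replicate 2 it was 2, without replicate 1 of 0 h it was 1 and without replicate 2 of 0 h it was 18, while without replicate 1 of 6 h it was 56. Over all tested genes 1022, 1143, 1141, 1586 and 2095 were lower in that order, against 2025 with all libraries.

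At 12 h the members stood nearer to 0 h, with 3 lower and 0 higher, against 6.48% and 5.96% of tested genes. The median was -0.14. With the transcript-length correction 6 were lower and 0 higher (8.08% and 8.1% of genes). RPL39L was among the members called lower (-0.27, adjusted p = 0.0443 in the edgeR test). This call was lost under 15 of 33 alternatives, among them both length corrections and the omission of any 1 library of 0 h or of 12 h, with a value of -0.15 at the weakest (coding length, adjusted p = 0.206). In replicate 2 of 12 h the median member stood at -0.27 relative to 0 h, and in replicates 1 and 3 at -0.03 and -0.11. RPS28, a protein near the mRNA exit site, had the lowest value in this comparison without being called (-0.35). It had 343, 241 and 347 CPM in the 12 h libraries against 397, 439 and 346 at 0 h, so that replicate 2 was the library below the rest. Leaving out replicate 2 of 12 h or replicate 2 of 0 h left 0 members called, without replicate 1 of 0 h there was 1, and without replicate 1 of 24 h, which shares the estimate of spread, there were 6. Over all tested genes 398, 565, 582 and 1100 were lower in that order, against 995 with all libraries.

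At 24 h nearly the whole family was below its starting level. In all, 75 members fell against 0 h and 1 rose, where 17.1% and 18% of tested genes did so, and the median member was at -0.35. In 67 members all 24 h libraries lay below all 0 h libraries (22.9% of tested genes). The lowest were RPS18 (-0.55), RPL13 (-0.53), RPL37 (-0.53), RPLP2 (-0.52) and RPLP1 (-0.51). The highest were RPL7L1 (0.22, called) and RPL39L (-0.11), RPL41 (-0.12) and RPL7 (-0.13), which were not called. RPL21 and RPS3A were also among the members without a call. The coding-length correction left 62 members lower at a median of -0.22 and the transcript-length correction 45 at -0.13 (18.1% and 16.3% of all genes). Without replicate 3 of 24 h, 48 members were called lower, and with replicates 2 and 3 averaged, at 6 h as well as at 24 h, 47. Over all tested genes 1850 and 1691 were lower under these settings, against 2624 with all libraries.

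The largest distance in the series lay between 3 h and the later times. Against 3 h, 75 members were lower at 6 h and 77 at 24 h, where 20.3% and 26.8% of tested genes were. In each comparison 1 member was higher, against 22.9% and 27.4% of tested genes. The medians were -0.49 and -0.61. All libraries of 6 h lay below all of 3 h in 77 members, and all of 24 h in 76, against 25.5% and 29.1% of tested genes. In 1 member (1.22%) all libraries of 24 h lay above all of 3 h, against 29.6% of tested genes. Between 3 and 24 h the lowest members were RPL22L1 (-0.93), RPL36A (-0.91), RPL13 (-0.90), RPL35 (-0.88), which lies near the exit of the peptide tunnel, and RPL34 (-0.86), all called. RPL39L (-0.03), RPL41 (-0.14) and RPL7 (-0.14) were among the members with no call in this comparison. With the coding-length correction 77 members were again called lower at a median of -0.41 (28.8% of all genes). Higher calls were fewer than in the background, with 4 members against 25% of all genes, and included RPL39L, RPL41 and RPL7L1. With the transcript-length correction 57 were lower at -0.27 and 3 higher (26.5% and 26.8% of all genes). For 6 h against 3 h, 69 members were lower and 4 higher with the coding-length correction (21.6% and 20.4% of all genes). With the transcript-length correction 51 were lower and 7 higher (17.8% and 20.9% of all genes). Leaving out any of the 17 libraries gave uncorrected counts of 76 to 79 lower members at 24 h and 73 to 77 at 6 h. Over all tested genes these counts were 3545 to 4145 and 2310 to 3230. The comparisons against 3 h were added because earlier results of these data had shown 3 h and 24 h at opposite ends, so their size is a description of that choice.

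**Figure D3:**
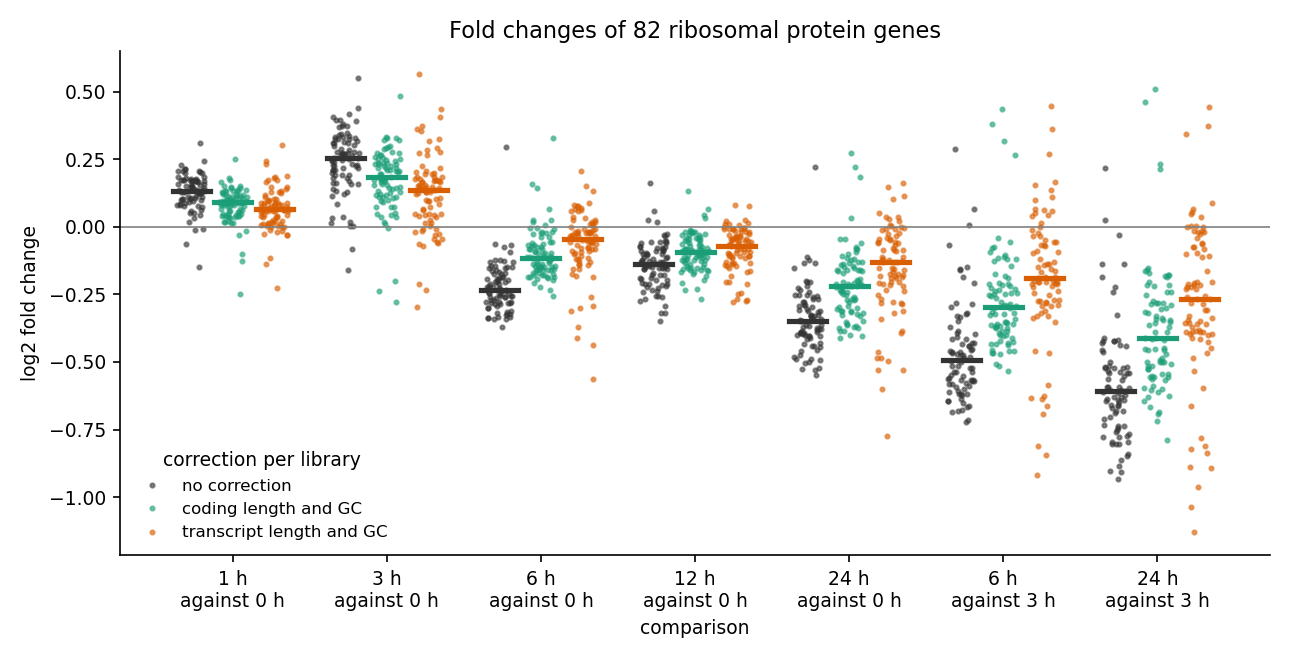
Log2 fold changes (vertical axis) of the 82 members in 7 comparisons, each point a gene and each bar the median, without correction and with the trend on coding length and GC or on transcript length and GC removed. Between 24 and 3 h the medians are -0.61, -0.41 and -0.27, and in each comparison the corrected medians lie nearer to 0 with the same sign.

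**Figure D4:**
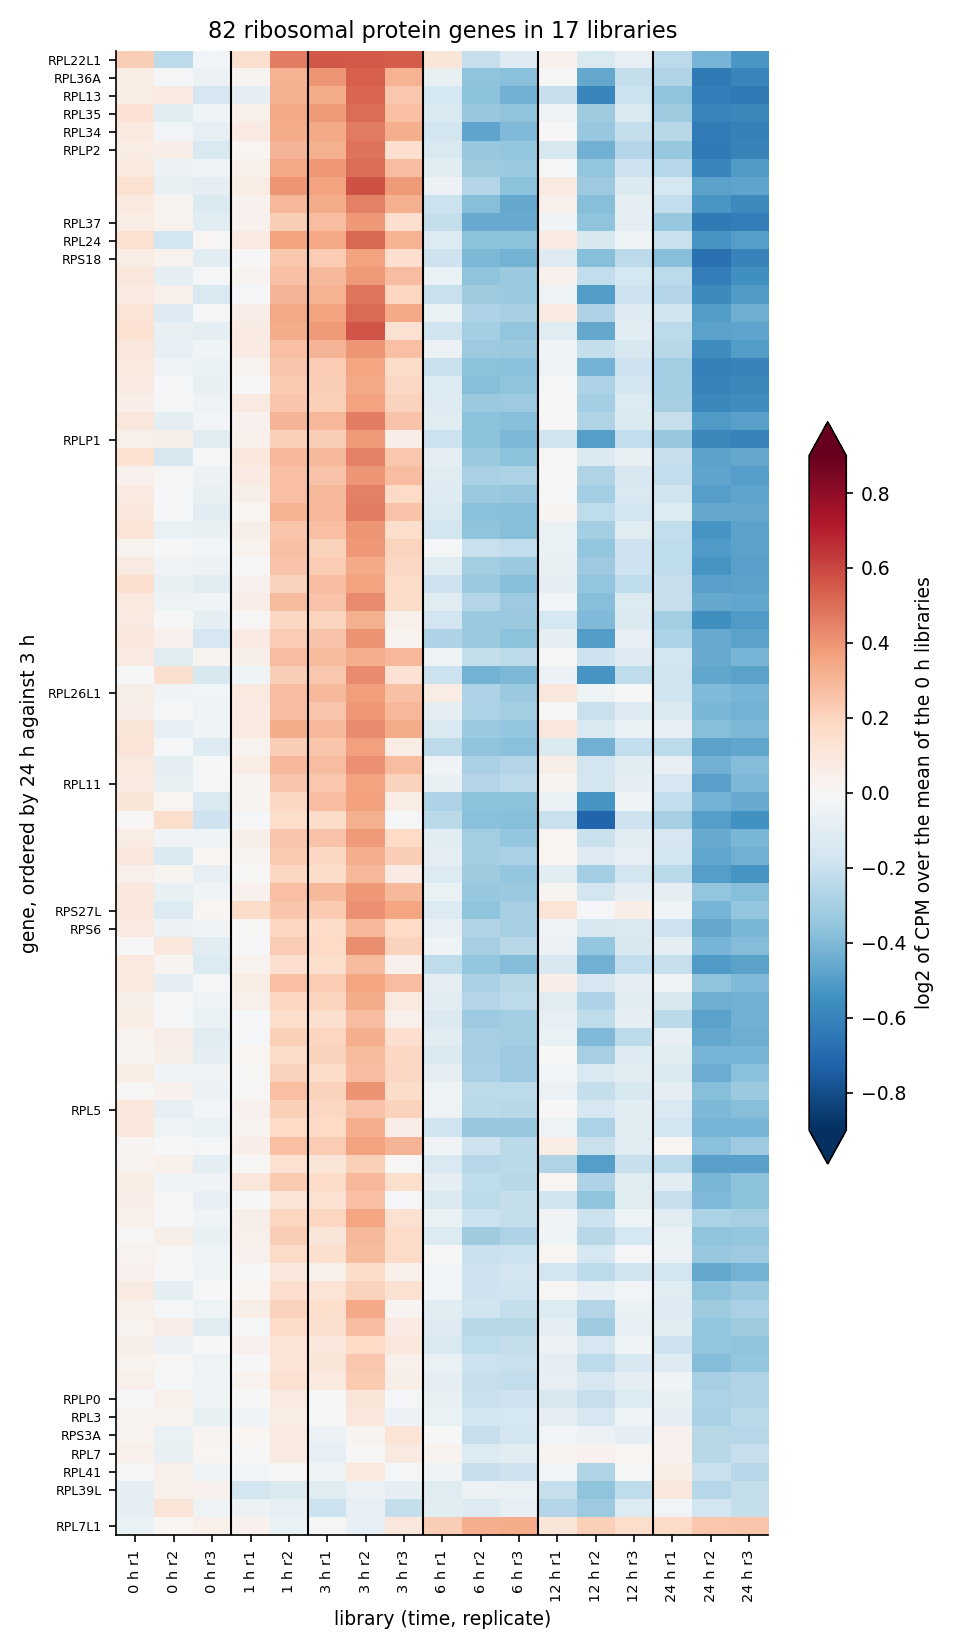
Log2 of CPM over the mean of the 0 h libraries for the 82 members (rows, ordered by the change from 3 to 24 h) in the 17 libraries (columns, grouped by time). The 3 h columns are red and the replicate 2 and 3 columns of 6 and 24 h are blue for most rows. The row at the far end, RPL7L1, stays near its 0 h level at 3 h and lies above it at 6 and 24 h. Only some of the members named in the text are labelled.

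When all times were tested together, 77 of the 82 members differed between times, against 64.2% of all tested genes. The smallest p-values belonged to RPS18, RPL17, RPL35, RPL23 and RPS23. The 5 members without a call included RPS3A (edgeR F-test, adjusted p = 0.126), RPL39L (0.131), RPL7 (0.250) and RPL41 (0.287).

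Among the small-subunit proteins, 12 of 31 rose after 3 h and 29 of 31 fell after 24 h against 0 h, with a median of -0.35 after 24 h. RPS18, a protein of the head of the small subunit (gene at chr6:33272010-33276510 in GENCODE 29, plus strand), had 3378, 3284 and 2998 CPM at 0 h and 3231 and 3812 at 1 h. The 3 h libraries had 3767, 4137 and 3569 CPM, all above 0 h, and at 6 h 2831, 2438 and 2396, all below. At 12 h it had 2977, 2471 and 2732 CPM and after 24 h 2464, 2022 and 2128. The 24 h libraries had the lowest mean, all lay below 0 h, and their highest value overlapped with 6 h. The change from 0 to 24 h was -0.55 (log2, SE 0.0929, edgeR adjusted p = 2.73e-04), with the coding-length correction it was -0.40 and with the transcript-length correction -0.28. It was called lower in this comparison under all 33 alternatives.

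RPS6, the substrate of the S6 kinases that act below mTOR, had 1242, 1133 and 1150 CPM at 0 h, 1321, 1443 and 1331 after 3 h, and 1030, 855 and 881 after 24 h. Its 3 times did not overlap. It fell by 0.35 (SE 0.0770, edgeR adjusted p = 0.00201) from 0 to 24 h, while its difference after 3 h, 0.22, was not called (adjusted p = 0.0561).

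Among the large-subunit proteins, 19 of 43 rose after 3 h and 40 of 43 fell after 24 h against 0 h, at a median of -0.37, close to that of the small subunit. RPL36A, which lies at the exit site of the large subunit (gene at chrX:101390824-101396154, plus strand), had 765, 720 and 703 CPM at 0 h and 742 and 907 at 1 h. It had 961, 1059 and 906 CPM after 3 h and 697, 566 and 561 at 6 h, with no overlap between these times and 0 h. At 12 h it had 733, 530 and 628 CPM, and after 24 h 605, 469 and 485. From 3 to 24 h it fell by 0.91 (SE 0.124, edgeR adjusted p = 1.98e-05), and the change was -0.69 with the coding-length and -0.42 with the transcript-length correction. RPL13 (chr16:89560657-89566828, plus strand) had 966, 973 and 832 CPM at 0 h, 1162, 1328 and 1093 after 3 h and 718, 604 and 594 after 24 h. Its change from 3 to 24 h was -0.90 without correction, -0.72 with the coding-length and -0.84 with the transcript-length correction.

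RPL5 and RPL11, the large-subunit proteins that can leave the ribosome in a particle with 5S rRNA and bind MDM2, followed the family. RPL5 had 1433, 1272 and 1316 CPM at 0 h, 1525, 1598 and 1549 after 3 h and 1220, 1011 and 1026 after 24 h. Its values after 3 h lay above and after 24 h below those at 0 h. It fell by 0.30 from 0 to 24 h (SE 0.0784, edgeR adjusted p = 0.00573), and RPL11 fell by 0.34 (SE 0.0851, adjusted p = 0.00474). With the transcript-length correction the changes of RPL5 and RPL11 were -0.18 and -0.19, and both were called. Of the p53-related genes that go with this branch, MDM2 rose by 0.19 (edgeR adjusted p = 0.038) and MDM4 fell by 0.49 (adjusted p = 0.0013) after 24 h, and CDKN1A, a cell cycle inhibitor, was highest at 6 h, by 0.96 (adjusted p = 1.2e-09).

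RPL41, which encodes the shortest protein of the family, had the largest p of all members in the test over all times. It had 879, 914 and 866 CPM at 0 h, 864, 943 and 878 after 3 h, 858, 769 and 779 at 6 h and 929, 769 and 742 after 24 h. The 0, 3 and 24 h groups overlapped. Its reference transcript has 469 bases, of which 75 are coding, the shortest coding length among the members, so that its corrected values rest on the end of the trend. With the coding-length correction it was lower after 3 h (-0.24) and higher after 24 h (0.27) than at 0 h, signs that the median member did not have. RPL37 is affected in the other sense: its reference transcript has 7686 bases and 291 coding bases. Its change after 24 h against 0 h was -0.53 without correction, -0.41 with the coding length and -0.78 with the transcript length.

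The stalk recruits the GTPases of translation to the large subunit, and all 3 of its proteins were called lower after 24 h. RPLP1 had 826, 830 and 741 CPM at 0 h, 930, 1041 and 833 after 3 h and 629, 533 and 526 after 24 h. RPLP2 had 704, 701 and 612 CPM at 0 h, 839, 945 and 748 after 3 h and 531, 432 and 443 after 24 h. In both, the 3 times did not overlap. They fell by 0.51 (SE 0.0976) and by 0.52 (SE 0.106) from 0 to 24 h, with edgeR adjusted p of 8.95e-04 and 0.00139. With the transcript-length correction the changes were -0.39 and -0.22. RPLP0, the base of the stalk (chr12:120196686-120201235, minus strand), had 2609, 2716 and 2561 CPM at 0 h, 2636, 2838 and 2606 after 3 h, and 2510, 2156 and 2176 after 24 h. Its 3 h group overlapped with 0 h, and it fell by 0.21 from 0 to 24 h (SE 0.0661, adjusted p = 0.0212). Under the transcript-length correction that change was -0.04 (edgeR adjusted p = 0.413), and with cyclic loess normalization in limma it was 0.01 (adjusted p = 0.849).

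RPL22L1, a paralog of RPL22 that has been described as a regulator of RNA splicing, had the largest difference between 3 and 24 h among the members. It had 57.5, 41.9 and 48.6 CPM at 0 h and 54.5 and 67.9 at 1 h. The 3 h libraries were close together at 72.5, 72.2 and 72.0 CPM, all above 0 h. At 6 h it had 53.1, 42.7 and 45.5 CPM, at 12 h 50.8, 44.8 and 46.8, and after 24 h 42.0, 36.9 and 34.3. The 24 h values lay below all other times except for replicate 2 of 0 h. The rise after 3 h was 0.55 (SE 0.109, edgeR adjusted p = 0.00218), and the change from 3 to 24 h was -0.93 (SE 0.111, adjusted p = 2.16e-06). With the coding-length correction these were 0.49 and -0.79, and both calls held under all 33 alternatives. The change from 0 to 24 h (-0.38, adjusted p = 0.0126) was lost without replicate 1 of 0 h (adjusted p = 0.0937), without replicate 3 of 24 h (adjusted p = 0.0646) and with the close pairs averaged (adjusted p = 0.0602).

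RPL7L1 was the one paralog that rose late. It is a nucleolar protein of large-subunit assembly rather than a standard part of the mature ribosome (gene at chr6:42879618-42889925, plus strand). It had 631, 667 and 679 CPM at 0 h, 676 and 632 at 1 h and 652, 625 and 705 after 3 h. At 6 h it had 770, 824 and 830 CPM, at 12 h 711, 766 and 733, and after 24 h 741, 779 and 785, each group above all libraries of 0 h. It rose by 0.29 at 6 h (SE 0.0587, edgeR adjusted p = 0.00119) and by 0.22 after 24 h (SE 0.0587, adjusted p = 0.0067) against 0 h. The value at 12 h, 0.16, was not called (adjusted p = 0.0768). Both calls held under all 33 alternatives, with values from 0.21 to 0.33 at 6 h and from 0.10 (transcript-length correction) to 0.33 (cyclic loess normalization) after 24 h. Its reference transcript of 3769 bases is longer than that of the median tested gene, and its deposited counts were not whole numbers in any of the 17 libraries.

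RPL26L1 and RPS27L had the direction of the median member at both times. RPL26L1 rose by 0.31 after 3 h (SE 0.0901, edgeR adjusted p = 0.0219) and fell by 0.33 after 24 h (SE 0.0913, adjusted p = 0.00953) against 0 h. Its 3 h call was lost under 4 of 33 alternatives, without replicate 2 or 3 of 0 h or replicate 1 or 2 of 3 h (adjusted p up to 0.0858). Its 24 h call was lost under 2, without replicate 3 of 24 h and with the transcript-length correction (-0.11, adjusted p = 0.126). RPS27L, described as a p53-responsive paralog of RPS27, rose by 0.33 after 3 h (SE 0.0879, adjusted p = 0.0131) and fell by 0.26 after 24 h (SE 0.0888, adjusted p = 0.0304). Its 3 h call was lost under 3 of 33 alternatives, without replicate 2 of 0 h, without replicate 2 of 3 h and with the transcript-length correction (adjusted p up to 0.0760). Its 24 h call was lost under 7, including the coding-length correction (-0.12), averaged close pairs, library size as the only scaling, and the omission of replicate 1 or 3 of 0 h or replicate 2 or 3 of 24 h (adjusted p up to 0.165). RPL39L, a paralog of the tunnel protein RPL39 that is enriched in testis, had 25.6, 27.9 and 27.9 CPM at 0 h, 25.1, 26.1 and 25.6 after 3 h and 29.1, 22.7 and 23.4 after 24 h, which overlap.

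Levels of parent and paralog were compared per kilobase of coding length. The counts cover whole transcripts, so the ratios depend on the length used. RPL39 stood 31.6 ± 3.47 times above RPL39L at 0 h, 41.8 ± 1.02 times at 3 h and 28.4 ± 0.942 times at 24 h (SD, n = 3). RPL26 stood 18.4 ± 0.448 times above RPL26L1 at 0 h and 16.4 ± 0.629 times at 12 h. RPL22 stood 10.4 ± 0.978 times above RPL22L1 at 0 h and 8.65 ± 0.153 times at 3 h, and RPS27 stood 7.97 ± 0.422 times above RPS27L at 0 h and 7.30 ± 0.343 times at 3 h. RPL7 and RPL7L1 were the nearest pair, with a ratio of 1.31 ± 0.0914 at 0 h, 1.02 ± 0.104 at 6 h and 1.03 ± 0.146 at 24 h. In this pair the log2 ratio ran from -0.06 to 0.19 at 6 h and from -0.10 to 0.25 at 24 h, below the 0.30 to 0.50 at 0 h. Per kilobase of the reference transcript, a divisor chosen after seeing the data, the ratios at 0 h were 4.36 ± 0.304 for RPL7 to RPL7L1, 11.5 ± 1.08 for RPL22 to RPL22L1, 16.8 ± 0.408 for RPL26 to RPL26L1, 59.6 ± 6.53 for RPL39 to RPL39L and 143 ± 7.57 for RPS27 to RPS27L. The last rests on a reference transcript of 6434 bases for RPS27L against 359 for RPS27. RPL7 and RPL7L1 were the nearest pair with either length, while the farthest pair and the sizes changed with it.

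**Figure D5:**
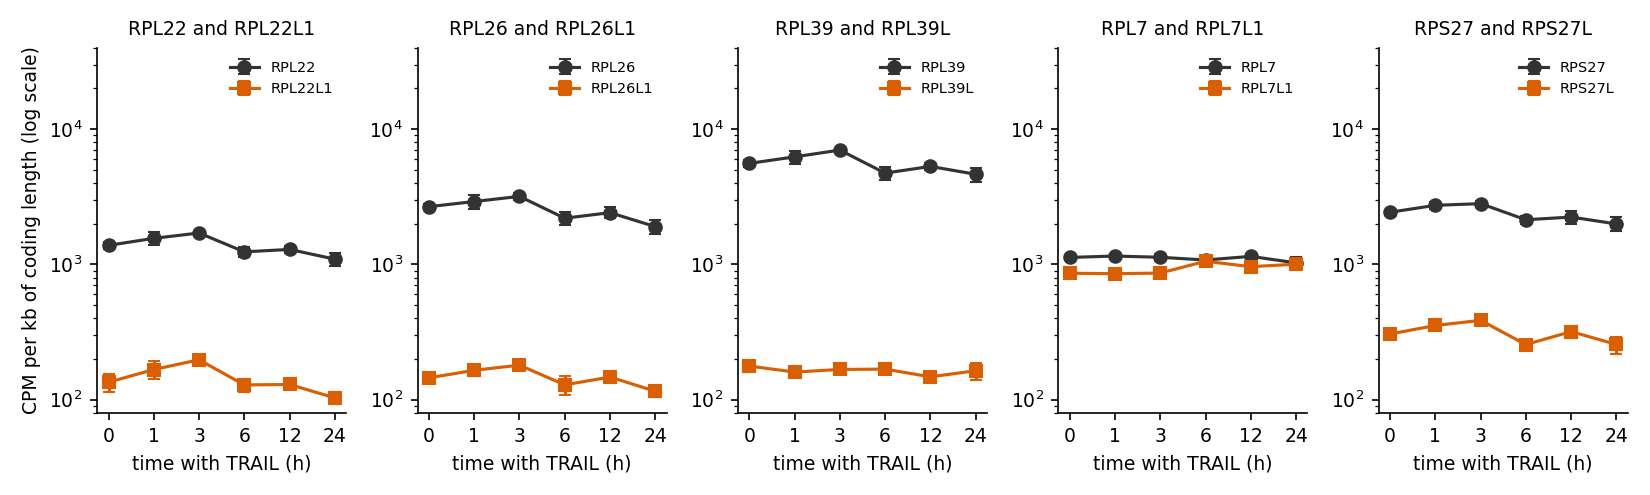
Mean CPM per kilobase of coding length (log axis) of 5 paralogs and their parent genes by time with TRAIL, with error bars of SD (n = 3, at 1 h n = 2). On this scale RPL7L1 stands closest to its parent, with a ratio of 1.31 at 0 h and 1.02 at 6 h, and RPL39L farthest, with 31.6 at 0 h; per kilobase of transcript these are 4.36, 3.41 and 59.6, and RPS27L is farthest.

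Members with and without a tract at the transcript start had overlapping changes. The 47 members with a tract had a median of 0.27 at 3 h and -0.38 at 24 h against 0 h, and the 19 without had 0.25 and -0.33. The ranges overlapped, from -0.55 to -0.12 with and from -0.44 to 0.22 without a tract at 24 h. The value of 0.22 is that of RPL7L1, and the 19 also hold the paralogs RPL26L1 and RPS27L. They further include RPL10A, RPL19, RPL3, RPL32, RPL4, RPS7 and RPS28, in which a tract began within 5 bases of the annotated start. The 19 are thus not a group free of the tract, and the comparison does not separate mRNAs with and without it. RPS3A and RPL41, which have the tract, were among the members that moved least, as was RPL3, whose run is shorter. These medians are descriptions without a test.

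Some ribosomal protein genes fall outside the symbol rule. FAU, which encodes RPS30 fused to a ubiquitin-like protein, fell by 0.43 (edgeR adjusted p = 0.0036) from 0 to 24 h. RPL36AL, a copy of RPL36A, fell by 0.45 (adjusted p = 0.0015). The proteins of the mitochondrial ribosome, 78 genes, are counterparts in another compartment. At 3 h 10 of them rose and 1 fell, near or below the 9.04% and 8.71% of all tested genes, and after 24 h 0 rose and 39 fell against 0 h (18% and 17.1% of all tested genes), with medians of 0.12 and -0.21, which are nearer to 0 than the 0.25 and -0.35 of the 82 members. With the transcript-length correction the median after 24 h was -0.10, against -0.13 for the members.

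Other translation genes and the host RNAs of small nucleolar RNAs, among which TOP starts are known, form 2 lists whose difference from the members was not tested. The tract was found at the annotated start in 13 of 14 translation genes with an entry in the promoter table and in 3 of 9 host RNAs. The shares of all tested genes called were 9.04% higher and 8.71% lower after 3 h, 16.9% and 13.2% at 6 h, and 18% and 17.1% after 24 h. Of 21 translation genes, 2 rose after 3 h and 0 fell, which is near the background, and after 24 h 2 rose and 10 fell against 0 h, with medians of 0.05 and -0.18. EEF1D, an elongation factor subunit, fell by 0.41 (edgeR adjusted p = 0.0014), BTF3, of the nascent polypeptide-associated complex, by 0.41 (adjusted p = 4e-04), and TPT1, an abundant growth-related mRNA, by 0.39 (adjusted p = 0.0011) after 24 h. EIF3A, the largest subunit of an initiation factor, was higher at 6 h, by 0.49 (adjusted p = 3.9e-04). Of the 11 noncoding host RNAs, 9 rose after 3 h (median 0.29) and 11 fell after 24 h (median -0.51), and after the transcript-length correction 5 rose and 9 fell. SNHG15 rose by 0.59 after 3 h (edgeR adjusted p = 9e-04) and fell by 0.68 after 24 h (adjusted p = 2e-04), and EPB41L4A-AS1 rose by 0.45 (adjusted p = 0.0011) and fell by 0.75 (adjusted p = 9.3e-06).

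The machinery that builds ribosomes is described by assembly factors and by RNA polymerase I, which makes the ribosomal RNA. Of 43 assembly factors 20 rose and 0 fell after 3 h, 15 rose and 2 fell at 6 h, and 2 rose and 26 fell after 24 h against 0 h, with medians of 0.17, 0.13 and -0.24. All tested genes were called higher and lower in 9.04% and 8.71% after 3 h, 16.9% and 13.2% at 6 h, and 18% and 17.1% after 24 h. At 6 h their median was thus above 0 when that of the ribosomal proteins was -0.23, a difference that was not tested. Under the transcript-length correction the assembly medians were 0.18, 0.17 and -0.19. RRS1, which brings the 5S particle to the forming large subunit, rose by 0.66 after 3 h (edgeR adjusted p = 1.8e-05) and fell by 0.49 after 24 h (adjusted p = 3.3e-04). DDX21, a nucleolar helicase, rose by 0.82 at 6 h (adjusted p = 2.8e-04). Of 15 genes for RNA polymerase I and its factors, 5 rose after 3 h, 9 rose at 6 h, and after 24 h 2 rose and 5 fell, where the number that rose is no more than the background. POLR1A, the largest subunit, rose by 0.47 at 6 h (adjusted p = 3e-05), and CD3EAP, another subunit, rose by 0.58 after 3 h (adjusted p = 2.4e-06) and fell by 0.95 after 24 h (adjusted p = 6.9e-09).

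Among 16 regulators of TOP mRNAs and ribosome synthesis, 7 rose and 1 fell at 6 h, and 3 rose and 2 fell after 24 h against 0 h. The counts after 24 h are near the background of 18% and 17.1% of all tested genes, and those at 6 h stand beside 16.9% and 13.2%. DDIT4, an inhibitor of mTOR, changed sign over the course. It fell by 1.07 at 1 h (edgeR adjusted p = 5.6e-07) and by 0.79 after 3 h (adjusted p = 3e-07) and rose by 0.77 at 12 h (adjusted p = 5.8e-07) and 0.67 after 24 h (adjusted p = 1.4e-06). EIF4EBP1, the translation repressor that mTOR inactivates, fell by 0.51 at 6 h (adjusted p = 4e-04) and 0.76 after 24 h (adjusted p = 8.1e-06). LARP1 rose by 0.43 at 6 h (adjusted p = 1.1e-04), and MYC, which drives ribosome synthesis, fell by 0.41 after 24 h (adjusted p = 7.6e-06). These are mRNA levels, and mTOR activity was not measured.

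Ribosomal protein genes have many processed pseudogenes, between which fragments can be split. Counts were not whole numbers in any of the 17 libraries for 44 members, and whole in all for 10. Rows of ribosomal protein pseudogenes held counts equal to 73.7% of the member's own for RPL9, 60.1% for RPL23A, 21.8% for RPL21 and 7.32% for RPL22, so the levels of these genes are uncertain. Summing the pseudogene rows into their members left the number of members called higher or lower the same in all 7 comparisons.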

How the data were processed

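Poly(A) RNA of 17 libraries was sequenced as stranded paired-end libraries, per the labels' protocols. The authors deposited 1 table of expected counts per gene, called gene-level RSEM output in the name of the table and not scaled for depth or length. The submitters' processing notes list cutadapt 1.18, STAR 2.7.0f and the build hg38, without saying what each was used for. The strand setting, the annotation release and the RSEM version are not given in the sources used here. Of the deposited values 10.8% were not whole, and all were rounded before testing. Fragments that fit several gene copies are divided between them in such counts.

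Library totals ran from 13731497 to 19234939 counts, and TMM factors from 0.939 to 1.06. Genes were filtered with filterByExpr and tested with edgeR 4.0.16 (R 4.3.3, robust quasi-likelihood fit, 1 mean per time, all 17 libraries), with Benjamini-Hochberg adjustment over 15365 genes and a threshold of 0.05. SE values were derived from the fold change and F. CPM values use TMM-scaled totals. For the corrections, splines (5 df each) on log2 length and GC content were fitted per library and the fitted values entered as offsets. Lengths and gene positions came from GENCODE 29. Transcript lengths were found for 99.8% of tested genes and coding lengths for 83.9%. Genes without one, and genes with a mean log2 CPM of 0 or less, were tested with no offset, and they count in the shares of all genes. limma 3.58.1 and DESeq2 1.42.0 served as alternatives. On simulated data for 6 h against 0 h with 15365 genes, 100 of 100 genes changed by a log2 of 1 and 77 of 100 changed by 0.4 were recovered. The simulated counts were drawn independently with the same dispersion for every gene, without a length trend or close pairs of libraries. Whether this recovery holds for the members, of which 0 to 56 were called lower at 6 h without 1 library, was not tested.

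The members, the gene lists and the 3 h comparisons were chosen with earlier results of these data known. Genes named in full are the 5 highest and 5 lowest members of each comparison, the 5 with the smallest p over all times, the members nearest to the count minimum, the paralogs, and per list the called genes with the largest change; other members are named with their own result. Some genes that this rule would name are not reported here by name; they stay in all counts and medians. Same-numbered libraries of different times did not deviate together (correlations from -0.20 to 0.21 over 40 pairs, median 0.01), and the labels tie the numbers to nothing, so no block was used.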

Additional observations from a re-analysis of the deposited data

How the results depend on the processing

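At 3 h against 0 h the number of members called higher was 22 with library size as the only scaling, 57 with no filter on low counts and 53 when only the 2 groups compared were fitted, and 2 to 51 when 1 library was left out. Over all genes 913, 1440, 1330 and 745 to 1559 were higher in that order, against 1389 in the main fit. With no filter 29899 genes were tested, and otherwise 15365. Library size alone put the median of all genes at -0.07 in this comparison. The number called lower was 1 with library size only and with cyclic loess (2154 and 1349 of all genes). It was 3 with either length correction (1886 of all genes with the transcript and 1732 with the coding length). The median member was at 0.14 with the transcript length, and at 0.20 to 0.30 on leaving out a library. At 6 h, 61 were lower with no filter, 59 with 2 groups, 0 with close pairs averaged, 5 with the transcript and 13 with the coding length (medians -0.046 and -0.12), and 0 to 56 without a library (-0.31 to -0.19). Over all genes 2042, 2200, 1002, 1756, 2107 and 1022 to 2205 were lower in that order, against 2025 in the main fit. At 12 h DESeq2 called 1 higher and 9 lower, and the number lower was 21 with no filter, 7 with 2 groups, 6 with the transcript length, 5 with the coding length, 6 with cyclic loess and 0 to 6 without a library (median -0.21 to -0.08). Over all genes DESeq2 called 933 higher and 1008 lower, against 916 and 995 in the main fit. The other settings called 1166, 918, 1242, 1191, 1006 and 398 to 1150 lower in that order. At 24 h, 47 were lower with close pairs averaged, 45 with the transcript length and 48 to 81 without a library (median -0.45 to -0.30). Over all genes 1691, 2512 and 1686 to 2798 were lower in that order, against 2624 in the main fit. With either length 2 members were higher, at medians of -0.13 (transcript) and -0.22 (coding), beside 2666 and 2573 of all genes. At 1 h the median was 0.03 to 0.24 without a library.

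For 6 h against 3 h, 7 members were higher with the transcript and 4 with the coding length, against 20.9% and 20.4% of all genes. The medians were -0.19 and -0.30, and leaving out a library gave medians of -0.57 to -0.45. For 24 h against 3 h, 2 were higher with library size only and with cyclic loess, 3 with the transcript and 4 with the coding length. Over all genes 5802, 4135, 4111 and 3834 were higher in that order, against 4215 in the main fit. The member medians were -0.47, -0.45, -0.27 and -0.41 in the same order, and -0.71 to -0.56 without a library. Library size alone moved the median of all genes by 0.14 here. Without mitochondrial counts the mean share came to 8.57% (0 h), 9.23% (1 h) and 9.76% (3 h). The replicate block gave 44 members higher at 3 h, 41 lower at 6 h and 4 lower at 12 h, and moved no member count by over 1.5 times. Among all genes it called 1511, 2043 and 1004 in these directions.

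Signs that turned were these. RPL41 stood at -0.21 (3 h to 0 h), 0.16 (24 h to 0 h), 0.27 (6 h to 3 h) and 0.37 (24 h to 3 h) with the transcript length. With the coding length these were -0.24, 0.27, 0.38 and 0.51. RPL39L, for 24 h to 3 h, stood at 0.35 and 0.46. With the transcript length RPL7 was 0.14 (6 h to 3 h), RPLP0 was 0.063 (6 h to 3 h) and 0.0038 (24 h to 3 h), and RPS3A 0.047 (24 h to 3 h). With cyclic loess RPLP0 was 0.011 (24 h to 0 h), 0.0035 (6 h to 3 h) and 0.075 (24 h to 3 h), and RPS3A 0.055 (24 h to 3 h). The coding-length correction, the transcript length in parent to paralog ratios and the summed pseudogene counts were chosen after seeing the data. The cause of these shifts was not tested. The 2 libraries at 1 h limit that comparison.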
